A study of Mus musculus with 14 samples.

Results

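A set of 10 genes known as surface markers of blood stem and progenitor cells was followed through treatment of a mouse leukemia: Cd34, Kit, Cd48, Eng, Ptprc, Cd244a, Muc13, Esam, Ly6a and Cd47. They were taken by name, with no threshold on a measured value, and are 10 of the 52636 gene identifiers in the count table. Earlier results of these data were known when they were chosen, so their counts beside all genes are descriptive. All 10 were matched to an identifier, 9 had enough counts to be tested, and Ly6a, with 45 counts over all libraries, did not. All of the libraries came from mice transplanted with I1DN leukemic cells, from which cKit-positive, CD11b-negative cells had been sorted mouse by mouse. I1DN is the name the labels give to the leukemia. Its alleles are not spelled out in the labels, and neither are the age, sex and strain of the hosts. The agent was AG120 (ivosidenib), an inhibitor of the mutant form of the enzyme IDH1.

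The 14 libraries fell into 5 groups. Treatment ran for 5 days with vehicle (n = 3) or with AG120 (n = 3), or for 14 days with vehicle (n = 2) or with AG120 (n = 2). A last group was given AG120 for 28 days and then followed until the leukemia had relapsed (n = 4). Each library was taken as 1 mouse, so the spread between replicates is that between mice sorted and sequenced once. All mice carried the same leukemia by label, and no library of healthy progenitors was analysed here. RNA was read at the 3′ end of transcripts, so a count does not grow with transcript length. Values are CPM, the counts of a gene scaled to a common library size, and fold changes are on the log2 scale with their standard error (SE). For each gene the quasi-likelihood test of edgeR was used, its p values were adjusted by the Benjamini-Hochberg method across 11994 genes, and "passed" means an adjusted p under 0.05.

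The proteins these genes encode are the coordinates by which flow cytometry sorts early blood cells. Mouse stem cells are classically found among cells that lack lineage markers and carry both Kit, the receptor for stem cell factor, and Sca-1, the product of Ly6a; within that gate they lack CD48 and CD244, members of the SLAM family that bind each other, and CD34 rises as long-term stem cells turn into short-lived progenitors. Endoglin, encoded by Eng, is a co-receptor for TGF-beta and BMP ligands on endothelium, stem cells and early red cell precursors, whereas CD45, the phosphatase encoded by Ptprc, is carried by nearly all white cells and is lost as red cells mature. ESAM is a junction protein of endothelium and stem cells, MUC13 is a transmembrane mucin, and CD47 is the signal that restrains phagocytes through SIRP-alpha.

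In the GRCm38 annotation, Cd48 (ENSMUSG00000015355, chr1:171682009-171705258) and Cd244a (ENSMUSG00000004709, chr1:171559193-171609746) both lie in the SLAM gene cluster. Cd34 (ENSMUSG00000016494, chr1:194938819-194961279) and Ptprc (ENSMUSG00000026395, chr1:138062861-138175708) are on the same chromosome. Kit (ENSMUSG00000005672) is at chr5:75574916-75656722, Eng (ENSMUSG00000026814) at chr2:32646595-32682669 and Esam (ENSMUSG00000001946) at chr9:37528078-37538319. Muc13 (ENSMUSG00000022824) is at chr16:33794037-33819934, Cd47 (ENSMUSG00000055447) at chr16:49800533-49915010 and Ly6a (ENSMUSG00000075602) at chr15:74994877-74998031. All 10 are protein-coding.

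Usable depth was modest. Libraries held 4995738 to 8691708 counts, of which ribosomal RNA gene models took 50.9% to 74.8%, leaving 1259982 to 3358874 counts for all other genes, with the least in AG120 day 14 replicate 1. Kit, one of the genes whose protein the sort used, was counted in every library, with 39 to 378 counts. Itgam, which encodes CD11b and against which the cells had been sorted, was also counted in every library: with vehicle and with AG120 its mean was 12.8 and 3.13 CPM at day 5 and 16.3 and 6.99 CPM at day 14, and in relapse it was 29.7 ± 18.6 CPM (SD, n = 4).

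To show the regulatory sequence next to the members with the widest range of values, the RefSeq windows (GRCm38.p6) of the 250 bases before the start site are printed for Cd34 and Cd244a, which fell most at day 14, and for Eng, which rose. Windows were found for 8 of the 10 members. Capitals mark the matches, on either strand, to the motifs of 5 families of factors. The GATA motif was searched as AGATAA and as TGATAA, the RUNX motif as TGTGGT and the ETS motif as CGGAAG, the E-box bound by MYC as CACGTG, and the motif of the SP and KLF factors as GGGCGG and as CACCC. Each window reads 5′ to 3′ along the gene's own strand, which is the plus strand for all 3, at chr1:194938571-194938820 for Cd34, chr1:171558943-171559192 for Cd244a and chr2:32646345-32646594 for Eng.
Cd34: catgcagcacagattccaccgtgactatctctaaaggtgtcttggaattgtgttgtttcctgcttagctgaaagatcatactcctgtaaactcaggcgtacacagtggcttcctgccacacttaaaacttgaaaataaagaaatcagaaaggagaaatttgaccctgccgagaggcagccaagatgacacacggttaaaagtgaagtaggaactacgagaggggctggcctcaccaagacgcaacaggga
Cd244a: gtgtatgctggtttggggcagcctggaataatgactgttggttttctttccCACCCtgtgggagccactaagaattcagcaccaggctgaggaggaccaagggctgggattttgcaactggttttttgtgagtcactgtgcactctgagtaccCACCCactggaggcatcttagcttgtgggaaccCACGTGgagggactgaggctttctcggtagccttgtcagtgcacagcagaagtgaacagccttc
Eng: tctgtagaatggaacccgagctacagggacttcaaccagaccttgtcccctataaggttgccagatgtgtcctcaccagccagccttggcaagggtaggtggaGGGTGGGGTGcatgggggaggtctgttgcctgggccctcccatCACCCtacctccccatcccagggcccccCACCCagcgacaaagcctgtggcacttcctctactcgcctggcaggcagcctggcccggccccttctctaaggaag
The Cd34 window holds none of the 5 motifs. That of Cd244a holds the E-box CACGTG at -64 from the start site, which 6.02% of all 32851 RefSeq windows of this length hold, and CACCC at -199 and -97. In the Eng window CACCC was found 4 times, 2 of them as its complement GGGTG, side by side; the SP and KLF motif occurs in 64.7% of all windows. Among the other members, Kit had matches to the SP and KLF motif only, Cd48 a match to RUNX at -76 (RUNX is in 14.1% of all windows), Cd47 matches to the ETS and the SP and KLF motifs, and Muc13 none. The first window of Ptprc had none, and a second window for another start site held GATA at -100 and -25, a motif found in 16.6% of all windows. A match is a string of letters and says nothing of whether a factor binds there.

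After 5 days of AG120, 5 of the 9 tested members had fallen and 1 had risen. Among all genes tested, 39.4% passed in this comparison, with 19.3% of all genes lower and 20.1% higher under AG120. The median member was lower by 1.11 on the log2 scale, against -0.00 for all genes. At day 14, 6 members were lower and 1 was higher, where 34.7% of all genes passed (17.9% lower and 16.8% higher), and the median member change was -2.20 against -0.01. Without overlap between the libraries compared, 6 members were lower and 2 higher at day 5, where 29.8% and 30.1% of all genes were, and 8 were lower and 1 higher at day 14, where 36.3% and 34.2% were. In sorted bulk RNA, fewer cells that carry a marker and less RNA of it per cell cannot be told apart.

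**Figure D1:**
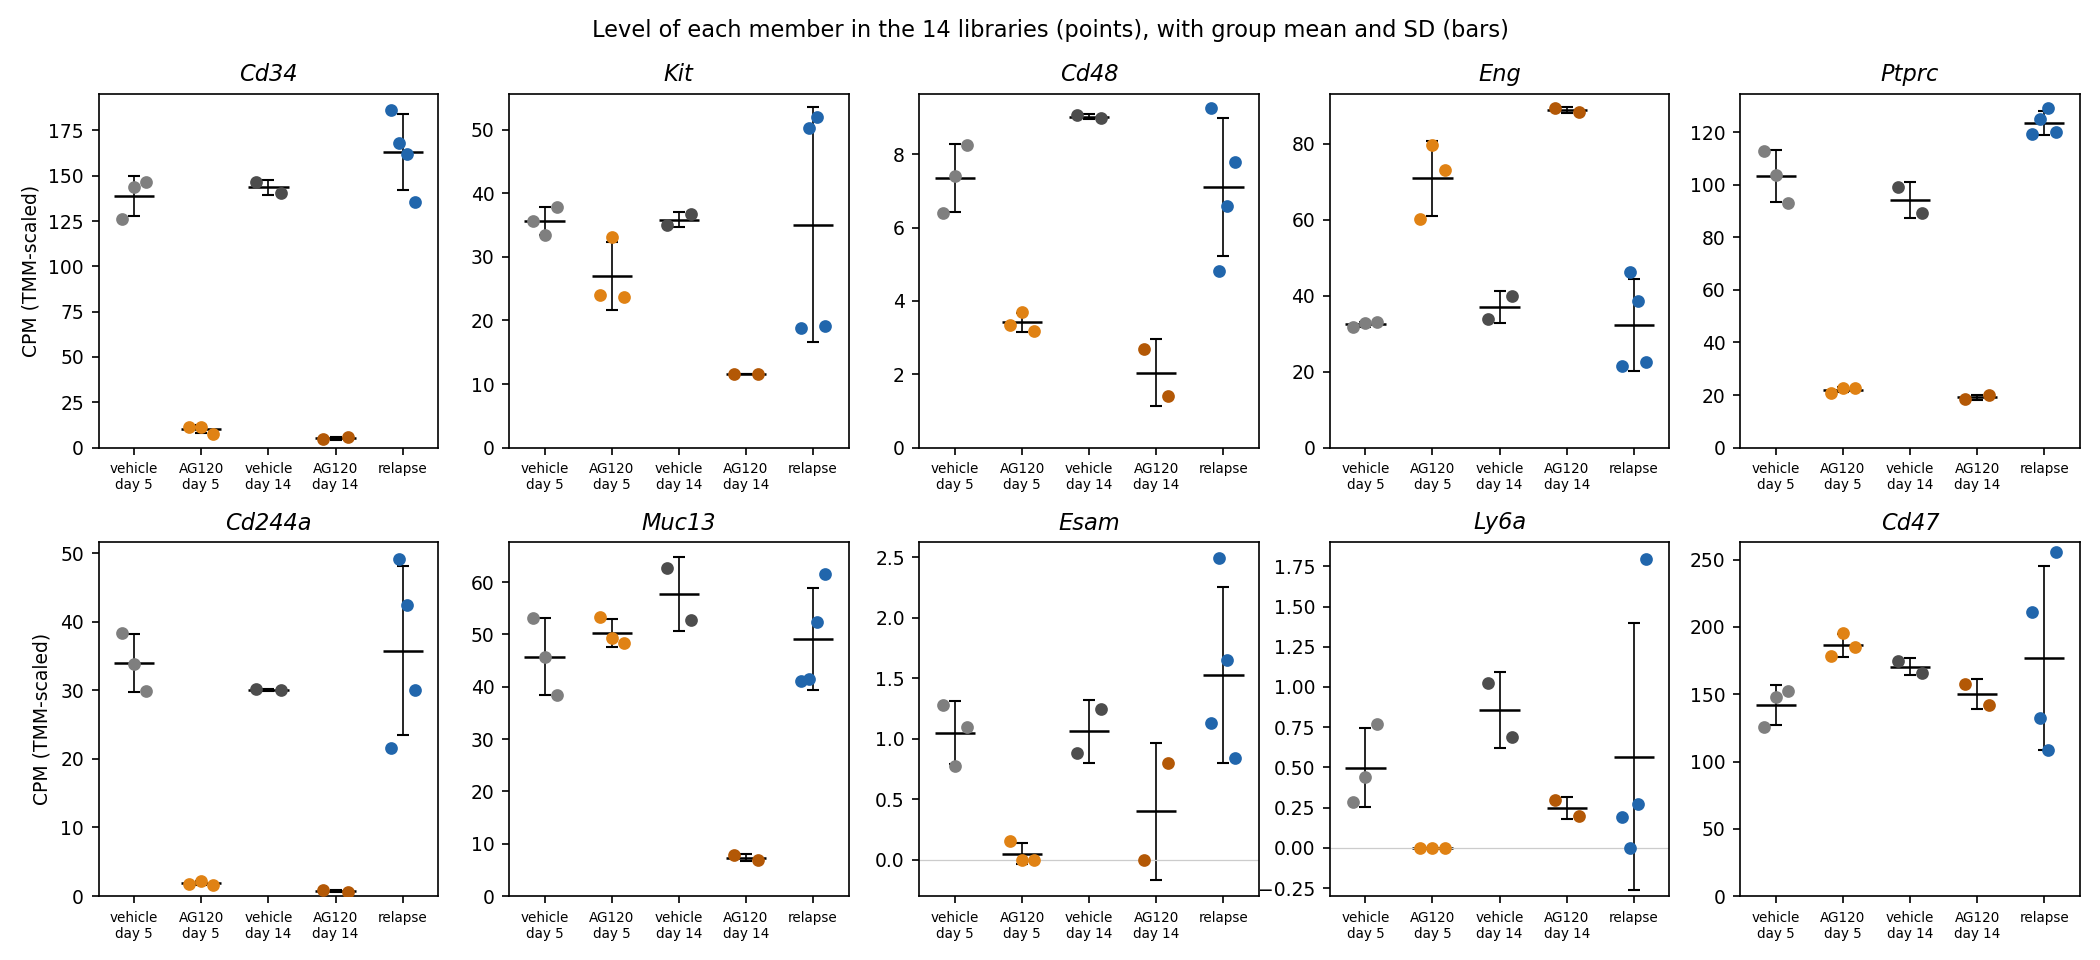
Level of each of the 10 markers in the 14 libraries, in CPM on a linear axis of its own for each gene; each point is 1 mouse and bars give the mean and SD of the group. Cd34, Cd244a and Ptprc are low in all 5 AG120 libraries and back up in relapse, Eng is high in the same 5 libraries, and Muc13 is low only in the 2 AG120 libraries of day 14.

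Cd34, the sialomucin that marks most progenitors, fell furthest in proportion to its error. Vehicle libraries read 126, 144 and 147 CPM at day 5 and 147 and 141 at day 14. Under AG120 they read 11.3, 11.4 and 7.67 CPM at day 5 and 4.48 and 5.80 at day 14. Every treated library was below every vehicle library, and the treated libraries of day 14 were below those of day 5. The fitted change was -3.78 ± 0.17 (SE, adjusted p = 5.61e-10), a 13.7-fold fall, at day 5 and -4.77 ± 0.23 (adjusted p = 1.86e-09), a 27.4-fold fall, at day 14. In both comparisons Cd34 had the smallest p of all genes tested. The difference between the days, -0.997 ± 0.28, did not pass (adjusted p = 0.128). An antisense gene, Gm16897, covers the 3′ end of Cd34; it held 138 counts over all libraries against 10007 for Cd34.

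The SLAM receptor gene Cd244a, which encodes 2B4, fell to the edge of detection. It read 38.3, 33.8 and 29.9 CPM in vehicle day 5 and 1.83, 2.18 and 1.597 in AG120 day 5. At day 14 both vehicle libraries read 30.2 and 30.0 CPM, and the treated ones 0.895 and 0.6005, which is 3 counts in each. No treated library came near a vehicle library. The log2 change was -4.17 ± 0.30 (adjusted p = 4.34e-08) at day 5 and -5.35 ± 0.48 (adjusted p = 4.97e-07) at day 14. Because few counts were left, the pooled counts give the ratio with its counting error: vehicle stood 18.1-fold (95% interval 12.9 to 26.1, from 847 and 35 counts) above AG120 at day 5 and 41.8-fold (19.1 to 115, from 423 and 6 counts) at day 14. These intervals cover counting error only.

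Cd48, whose protein is the ligand of 2B4, was also lower, by less. Vehicle libraries read 6.41, 7.40 and 8.25 CPM at day 5 and 9.08 and 8.98 at day 14, against 3.35, 3.70 and 3.19 and then 2.69 and 1.40 under AG120. The groups did not overlap on either day. The change was -1.11 ± 0.25 (adjusted p = 0.00245) at day 5 and -2.20 ± 0.36 (adjusted p = 0.00019) at day 14, when 16 counts were left in the 2 treated libraries together.

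Ptprc fell on both days. The vehicle libraries read 113, 104 and 93.0 CPM at day 5 and 99.2 and 89.4 at day 14. The treated libraries read 20.9, 22.5 and 22.5 CPM at day 5 and 18.5 and 19.8 at day 14. The 5 treated libraries lay close together, from 18.5 to 22.5 CPM, and far below all 5 vehicle libraries. The change was -2.23 ± 0.12 (adjusted p = 1.31e-09) at day 5 and -2.29 ± 0.15 (adjusted p = 1.35e-08) at day 14. The effects of the 2 days differed by -0.06 ± 0.18, a value that did not pass (adjusted p = 0.939).

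Eng was the 1 member that rose, on both days. The vehicle libraries read 31.8, 32.7 and 33.0 CPM at day 5 and 33.99 and 39.9 at day 14, and the treated libraries 60.2, 79.6 and 73.0 and then 89.5 and 88.5. All treated libraries were above all vehicle libraries. The change was 1.13 ± 0.23 (adjusted p = 0.00122), or 2.18-fold, at day 5 and 1.27 ± 0.28 (adjusted p = 0.00277), or 2.41-fold, at day 14. The last 61 bases of Eng overlap Fpgs, the gene of folylpolyglutamate synthase, which is read from the opposite strand and ends there too. Fpgs rose as well, from a mean of 10.0 to 50.5 CPM at day 5 (adjusted p = 8.4e-08) and from 15.2 to 47.4 at day 14 (adjusted p = 3.6e-05). Whether counting used strand is not given in the sources used here, so reads in that overlap cannot be assigned to either gene with certainty.

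The mucin gene Muc13 was the 1 member for which the difference between the days passed. At day 5 the vehicle libraries read 53.1, 45.6 and 38.5 CPM and the treated ones 53.3, 49.2 and 48.4, so the groups overlapped. At day 14 the vehicle libraries read 62.7 and 52.8 CPM and the treated ones 7.76 and 6.81, far below every other library of the study. The change was 0.14 ± 0.16 (adjusted p = 0.517) at day 5 and -2.99 ± 0.24 (adjusted p = 1.07e-07), a 7.97-fold fall, at day 14. The test of the difference between the days gave -3.13 ± 0.29 (adjusted p = 6.01e-05), and no gene among the 11994 had a smaller p in it. Only 0.934% of all genes passed that test, and 1 of the 9 members did. Cd34 and Cd48 had an unadjusted p under 0.05 in it.

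Kit did not pass at day 5. Vehicle libraries read 35.6, 33.5 and 37.8 CPM and treated ones 24.1, 33.1 and 23.6, which do not overlap but lie close, and the change was -0.41 ± 0.35 (adjusted p = 0.393). At day 14 vehicle libraries read 35.0 and 36.8 CPM and both treated libraries 11.6, a change of -1.62 ± 0.49 (adjusted p = 0.022). That call rests on few libraries: leaving out any 1 of the 4 gave an adjusted p of 0.0589 to 0.115, and the change then ran from -1.67 to -1.59. The difference between the days, -1.22 ± 0.60, did not pass (adjusted p = 0.44). The fit shares 1 spread over all groups, and Kit varied widely in relapse. When the other groups were left out of the fit, the day 5 change was -0.43 ± 0.11 (adjusted p = 0.00168). Since cells were sorted on the Kit protein, these values are those of cells that all cleared the gate.

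Cd47 did not pass on either day. Its vehicle libraries read 125, 148 and 152 CPM at day 5 and 175 and 166 at day 14, against 179, 196 and 185 and then 158 and 142 under AG120. The treated libraries were all above vehicle at day 5 and all below it at day 14. The changes were 0.39 ± 0.24 (adjusted p = 0.208) at day 5 and -0.18 ± 0.29 (adjusted p = 0.661) at day 14, and the difference between the days was -0.58 ± 0.38 (adjusted p = 0.602). As with Kit, the fit of only the groups compared gave a narrower error, and Cd47 then passed at day 5 (0.37 ± 0.08, adjusted p = 0.000183).

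Esam and Ly6a were near the limit of detection, so their counts are given. Esam had 9, 7 and 10 counts in vehicle day 5 and 1, 0 and 0 in AG120 day 5, then 6 and 9 in vehicle day 14 and 0 and 4 in AG120 day 14. The pooled vehicle to AG120 ratio was 19.4 (95% interval 3.19 to 795) at day 5 and 2.23 (0.709 to 9.21) at day 14. The day 5 fall passed (-3.88 ± 1.00, adjusted p = 0.00544) and that of day 14 did not (-1.16 ± 0.93, adjusted p = 0.353). All 4 of the treated counts at day 14 lay in replicate 2; without it the treated group was at 0 and the fitted change moved from -1.16 to -5.87, which did not pass (adjusted p = 0.0951). Ly6a had 2, 4 and 7 counts in vehicle day 5 and none in the 3 treated libraries. With the treated group as a whole set at 3 counts, vehicle stood 3.23-fold above AG120, a value that leaves out the counting error of vehicle. At day 14 Ly6a had 7 and 5 counts against 1 and 1, a ratio of 3.56 (95% interval 0.793 to 32.8) that the counting error does not separate from no change.

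**Figure D2:**
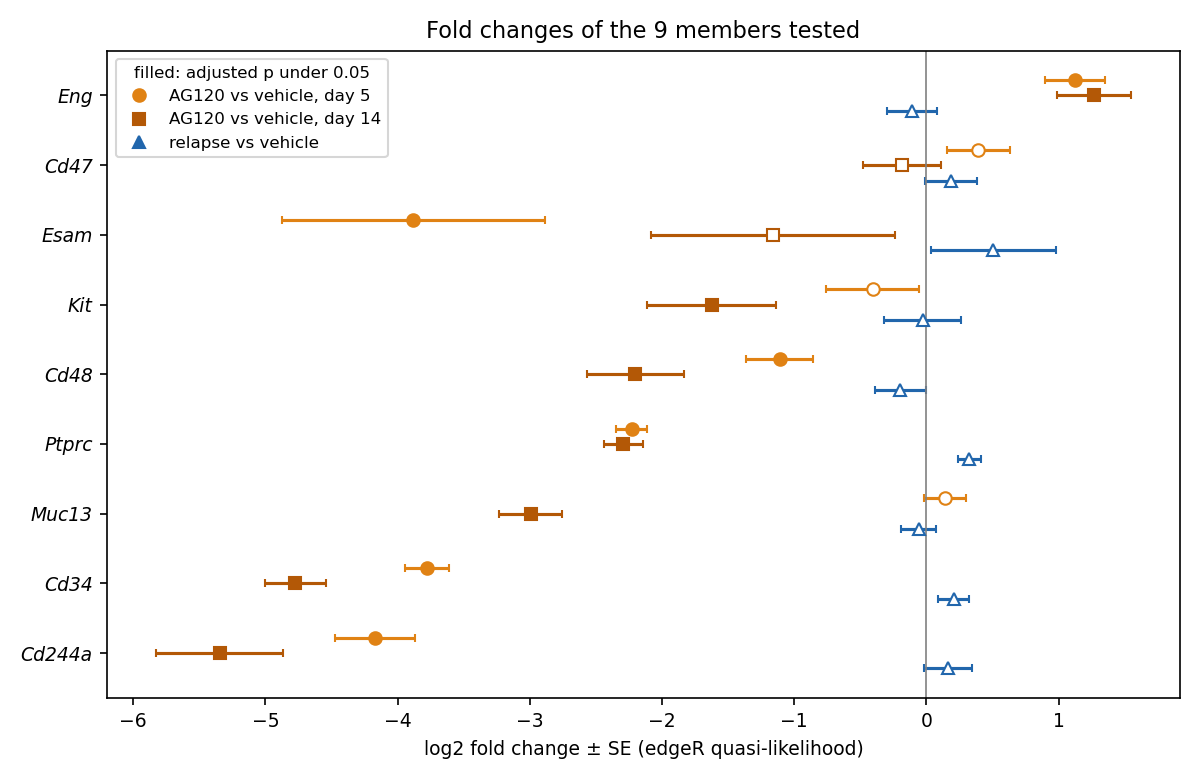
Log2 fold change of the 9 tested markers in 3 comparisons (AG120 against vehicle at day 5, the same at day 14, and relapse against vehicle), with bars of 1 SE; filled points passed an adjusted p of 0.05 and open points did not. All points for relapse against vehicle are open and lie between -0.20 and 0.51, while under AG120 Cd34, Cd244a, Ptprc, Cd48 and Eng are filled on both days, Esam only at day 5 and Kit and Muc13 only at day 14.

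In mice whose leukemia had relapsed, Cd34, Cd244a, Ptprc, Cd48, Muc13 and Kit were higher than under AG120 and Eng was lower, while no member passed against vehicle. Against the mean of both vehicle groups, 0 of the 9 members passed with edgeR, where 0.183% of all genes did (0.1% higher and 0.0834% lower); 1 member, Ptprc, had an unadjusted p under 0.05, and DESeq2 called that 1. The median member change was 0.16, against 0.02 for all genes. Against the mean of both AG120 groups, 7 members were higher, Esam among them, and 1 was lower, where 54% of all genes passed (27.9% higher and 26.1% lower), with a median of 1.46 against 0.01. Here 5 members were higher and 1 lower without overlap, against 18.3% and 18.9% of all genes. Esam was among these 5 too, and its call is set aside below. Vehicle and AG120 served in the earlier comparisons too, so these are not independent of them.

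Cd34 read 186, 168, 162 and 135 CPM in relapse replicates 1 to 4, far above every AG120 library. Its change was 4.48 ± 0.15 (adjusted p = 3.82e-12) against AG120, with the smallest p of all genes tested, and 0.21 ± 0.12 (adjusted p = 0.516) against vehicle. Replicate 4 lay within the vehicle range and the other 3 above it. Cd244a read 21.5, 49.2, 42.4 and 30.1 CPM, spread around the vehicle range, a change of 4.92 ± 0.28 (adjusted p = 8.44e-10) against AG120 and 0.16 ± 0.18 (adjusted p = 0.769) against vehicle.

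Ptprc read 119, 125, 129 and 120 CPM in relapse, which put each of the 4 libraries above each of the 5 vehicle libraries. No other member did so, whereas 1.98% of all genes lay above and 1.97% below all vehicle libraries. The change against vehicle was 0.32 ± 0.09, or 1.25-fold, and did not pass (adjusted p = 0.14); DESeq2 gave 0.34 ± 0.09 (adjusted p = 0.0291). Against AG120 it was 2.59 ± 0.10 (adjusted p = 1.24e-11).

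Muc13 read 41.2, 41.5, 52.3 and 61.5 CPM in relapse, within or near the 38.5 to 62.7 of the vehicle libraries, with a change of -0.06 ± 0.13 (adjusted p = 0.902) against them. Cd48 read 9.26, 4.81, 6.60 and 7.79 CPM, where replicate 2 was below all vehicle libraries but above all treated ones, and both passed against AG120, with 1.37 ± 0.15 (adjusted p = 1.05e-06) for Muc13 and 1.46 ± 0.23 (adjusted p = 6.38e-05) for Cd48. Esam had 6, 14, 12 and 7 counts in relapse, against 0 to 4 in the AG120 libraries. It cleared the filter on low counts only through relapse replicates 2 and 3, so that it was tested only because it was high there, and its call against AG120 is not used as support. That fitted change was 3.03, and 5.38 without AG120 day 14 replicate 2.

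Kit, Eng and Cd47 divided the relapse libraries, and some other members did so too, as given below. Kit read 18.9, 50.2, 52.0 and 19.2 CPM in replicates 1 to 4, so that replicates 1 and 4 stood at 0.529 and 0.537 of the vehicle mean and replicates 2 and 3 at 1.41 and 1.46. Eng was split in the same way, with 21.5, 46.1, 38.5 and 22.5 CPM, low in replicates 1 and 4, and Cd47 was high in these 2, with 211, 132, 109 and 256 CPM, or 1.38, 0.862, 0.710 and 1.67 of the vehicle mean. None of these genes passed against vehicle (Kit -0.03 ± 0.29, adjusted p = 0.983; Eng -0.11 ± 0.19, adjusted p = 0.866; Cd47 0.19 ± 0.20, adjusted p = 0.756), and the 4 libraries of each lay on both sides of the vehicle mean. The libraries also differed in other ways that went with this split: marker genes of megakaryocytes summed to 78.4 and 97.7 CPM in replicates 1 and 4 and to 279 and 263 in replicates 2 and 3, and those of monocytes and macrophages to 101 and 74.7 against 39.2 and 39.8. Most of the megakaryocyte sum was Itga2b (75.4, 247, 234 and 92.2 CPM in replicates 1 to 4), also on the list of other stem and progenitor surface genes below. Itgam, itself part of the monocyte and macrophage sum, had 283 and 296 counts in replicates 1 and 4 against 78 and 117 in replicates 2 and 3. Erythroid genes summed to 36.6 and 39.7 CPM in replicates 1 and 4 and to 83.9 and 391 in replicates 2 and 3. Endothelial genes summed to 126 and 147 CPM against 194 and 167. The stromal sum was also lower in replicates 1 and 4, and that of T and NK cells was higher. Lists that did not go with the split were those of neutrophils, of mast cells and basophils, and of B cells. Neutrophil genes summed to 534, 1293, 260 and 492 CPM in replicates 1 to 4, and those of mast cells and basophils to 80.5, 82.7, 60.4 and 82.1. The part of other cells in these values was not tested. Among the other tested members, Cd244a followed the same split. It read 21.5 and 30.1 CPM in replicates 1 and 4 and 49.2 and 42.4 in replicates 2 and 3. Esam was also lower in replicates 1 and 4, as was Ptprc within a narrow range (119 to 129 CPM), and Cd48 was higher there. Cd34 and Muc13 did not follow the split. Kit passed against AG120 (0.99 ± 0.31, adjusted p = 0.0188), a call that was lost without AG120 day 14 replicate 1 or 2 (adjusted p = 0.0553 and 0.0671) and without relapse replicate 2 or 3 (0.0609 and 0.0577). Eng was lower than in AG120 by 1.31 (log2 change -1.31 ± 0.19, adjusted p = 4.78e-05), and Cd47 did not pass (0.08 ± 0.20, adjusted p = 0.742).

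**Figure D3:**
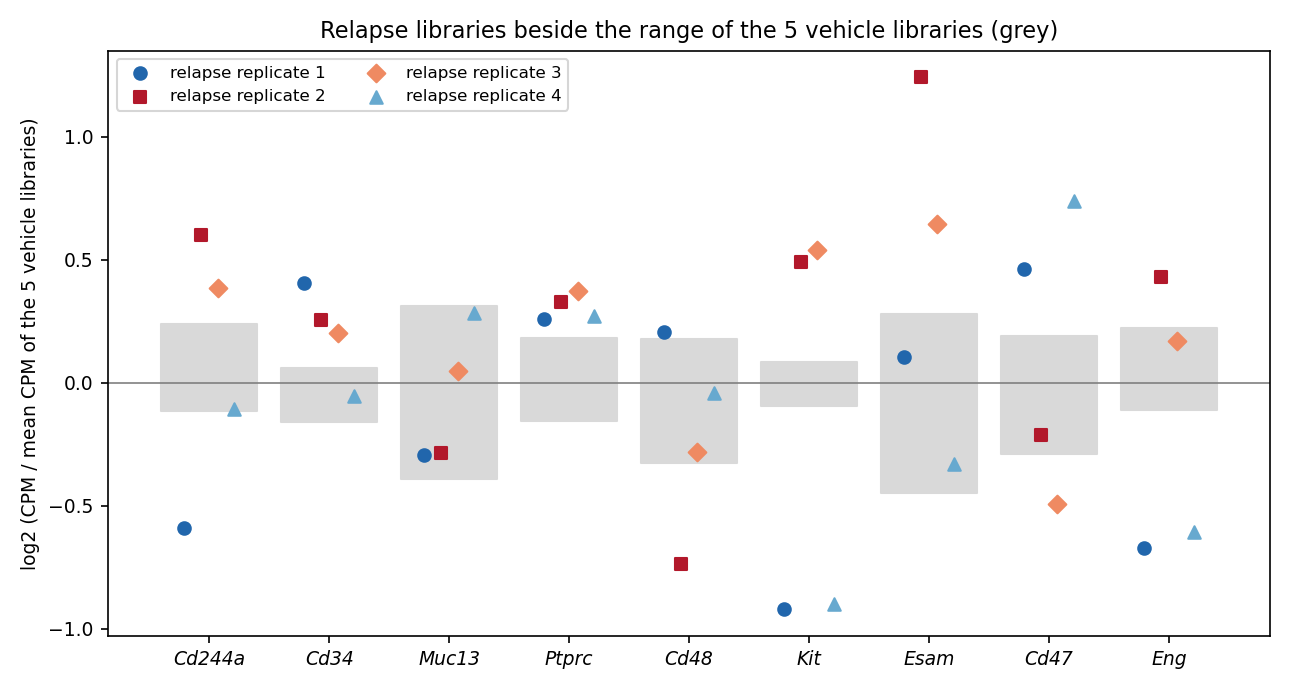
Level of the 9 tested markers in each of the 4 relapse libraries relative to the mean of the 5 vehicle libraries, on a log2 axis, with the range of the vehicle libraries in grey. Replicates 1 and 4 are low for Kit and Eng and high for Cd47, replicates 2 and 3 lie on the other side of the vehicle mean, and all 4 lie above the grey range for Ptprc.

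Ly6a, the gene of Sca-1, had 1, 0, 2 and 15 counts in relapse replicates 1 to 4. Replicate 4 alone held more than any vehicle library, of which the highest had 7. With so few counts its levels are not ordered further.

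The vehicle groups of the 2 days could be set against each other to see how steady the markers were without drug. Of the 9 members 0 passed with edgeR, 0 had an unadjusted p under 0.05 and DESeq2 called 0, and 0% of all genes passed with edgeR. Cd48, Eng and Cd47 were nonetheless higher in both day 14 vehicle libraries than in all of day 5, as were 15.2% of all genes, with changes of 0.29, 0.19 and 0.26.

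Other surface genes of stem and progenitor cells, a list of 28 of which 20 could be tested, moved mostly down. At day 5, 12 passed lower and 1 higher (19.3% and 20.1% of all genes), with a median of -1.87, and at day 14, 11 lower and 1 higher (17.9% and 16.8% of all genes), with a median of -2.30. Cd93, the C1q receptor-like protein of early progenitors, fell from 67.2, 69.2 and 72.6 CPM to 8.69, 7.06 and 6.55 at day 5 and from 64.0 and 72.6 to 3.28 and 4.40 at day 14. Its log2 change was -3.22 ± 0.20 (adjusted p = 5.99e-09) and -4.11 ± 0.29 (adjusted p = 2.18e-08), with no overlap between the groups. Cd96 fell by 3.62 at day 14 (adjusted p = 1.28e-05). Itga4, an integrin subunit for VCAM1 and fibronectin, was the 1 that rose, by 0.61 ± 0.13 (adjusted p = 0.00154) at day 5 and 0.43 ± 0.16 (adjusted p = 0.0498) at day 14. In relapse 16 of the 20 were higher and 2 lower than in AG120 (27.9% and 26.1% of all genes), and 0 passed against vehicle, where 0.183% of all genes did. Thy1, among the 16, cleared the filter on low counts only through relapse libraries, and Slamf1, among the 2, only through AG120 libraries. Neither call is used as support.

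The SLAM family beyond Cd48 and Cd244a was scarcely read, with 4 of 11 genes tested. Cd84, a receptor of this family, fell from 35.9, 34.8 and 29.4 CPM to 10.2, 7.39 and 12.6 at day 5 (-1.72 ± 0.22, adjusted p = 1.92e-05) and from 30.2 and 22.4 to 7.46 and 9.21 at day 14 (-1.64 ± 0.30, adjusted p = 0.000501). Sh2d1b1, which encodes an adaptor of these receptors (EAT-2), fell from 26 to 3 counts at day 5, a pooled ratio of 6.47 (95% interval 1.98 to 33.4, edgeR adjusted p = 0.0175). At day 14 it had 7 and 8 counts with vehicle and 0 in both treated libraries (edgeR adjusted p = 0.0158). With the treated group set at the floor of 3 counts, vehicle stood 2.97-fold above AG120, a value that leaves out the counting error of vehicle. Slamf1, the gene of CD150, held 1 to 11 counts per library; it did not pass against vehicle on either day (1.21 ± 0.62, adjusted p = 0.134, and 1.27 ± 0.73, adjusted p = 0.193). It cleared the filter on low counts only through AG120 libraries, 2 of them. Its level in relapse was 1 to 5 counts, and its call there against AG120 is not used as support.

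Ligands, partners and relatives of the members formed another list, with 11 of 22 genes tested. At day 5, 8 passed lower and 1 higher (19.3% and 20.1% of all genes), with a median of -1.64, and at day 14, 6 lower and 0 higher (17.9% and 16.8% of all genes), with a median of -1.76. Sirpa, the receptor for CD47, fell from 28.2, 32.5 and 35.0 CPM to 4.72, 6.38 and 4.31 at day 5 (-2.64 ± 0.36, adjusted p = 7.29e-05), while Cd47 itself did not pass. Ptprcap, which encodes a protein that associates with CD45, read 57.2, 55.0 and 53.7 CPM in vehicle and 24.4, 33.9 and 29.2 in AG120 at day 5, then 47.9 and 49.8 against 9.25 and 9.81 at day 14. The difference between the days was -1.43 ± 0.26 (adjusted p = 0.0184); the same test did not pass for Ptprc. Ly6e, a relative of Ly6a that was read well, fell by 0.88 at day 5 and 1.76 at day 14 (difference between the days -0.88 ± 0.19, adjusted p = 0.0343). Tgfbr2, the TGF-beta receptor with which endoglin works, fell by 2.90 at day 14 (adjusted p = 0.0016). Podxl, a sialomucin of the CD34 family, was the 1 called higher at day 5, with 1 count in the 3 vehicle libraries together and 62, 12 and 15 in the treated ones. The pooled ratio was 119 (95% interval 20.9 to 4763), and 55.6 (9.17 to 2277) without replicate 1. No vehicle library cleared the filter on low counts for this gene, so its call is not used as support, and at day 14, with 2 counts against 30, it did not pass (adjusted p = 0.121). Kitl, the ligand of Kit, had 0 to 4 counts per library and was not tested.

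Surface genes of red cell precursors, of which 14 of 14 were tested, went the other way. At day 5, 11 rose and 0 fell (20.1% and 19.3% of all genes), with a median of 2.72, and at day 14, 12 rose and 0 fell (16.8% and 17.9% of all genes), with a median of 2.95. For Cd36, Kel and Slc4a1 no vehicle library cleared the filter on low counts. These 3 are among the 14 and enter the counts and medians given here, but no call of theirs is used as support. Ermap, an erythroid membrane protein, read 3.27, 3.09 and 5.61 CPM in vehicle day 5 and 174, 199 and 182 in AG120 day 5 (5.51 ± 0.77, adjusted p = 0.000329). Rhd, of the Rh blood group, rose by 4.58 ± 0.62 at day 5 and 5.14 ± 0.74 at day 14 (adjusted p = 0.000214 and 0.000372), and Tfrc, the transferrin receptor, by 2.07 and 2.77. In relapse 12 were lower than in AG120 (26.1% of all genes were), and 0 passed against vehicle, where 0.183% of all genes did. Eng thus moved in the same direction as these genes and against most of the stem and progenitor list.

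**Figure D4:**
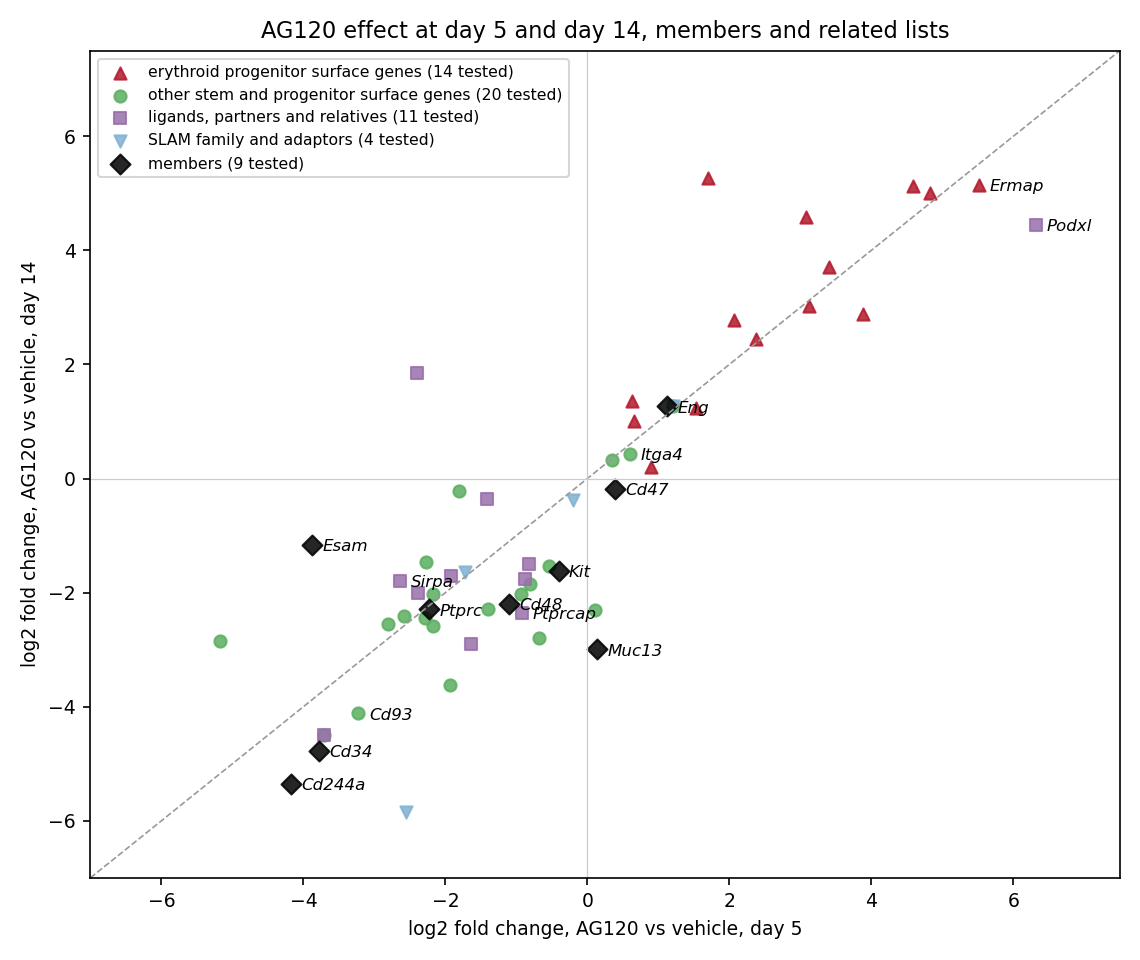
Log2 fold change under AG120 at day 5 (horizontal axis) and day 14 (vertical axis) for the members and 4 lists of related surface genes, 1 point per gene tested. Cd34, Cd244a and Cd93 lie at the lower left, Muc13 lies low with a day 5 change near 0, and Eng lies with the red cell precursor genes at the upper right.

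Markers of other cell types moved with these groups and are given beside the results. The summed level of 11 erythroid genes was 41.4 to 115 CPM with vehicle and 367 to 488 with AG120 at day 5, 78.4 to 120.52 and 1149 to 1430 at day 14, and 36.6 to 391 in relapse. Of 10 genes of endothelium, which also makes CD34, endoglin and ESAM, the sum was 141 to 158 CPM with vehicle and 59.5 to 84.9 with AG120 at day 5, 141 to 155 and 71.6 to 75.1 at day 14, and 126 to 194 in relapse, carried mainly by Pecam1 and Egfl7. Of the 6 tested, 3 passed lower and 1 higher at day 5 (19.3% and 20.1% of all genes), and 1 lower and 2 higher at day 14 (17.9% and 16.8%). At day 5 the mean of Pecam1 went from 104 to 22.1 CPM and that of Egfl7 from 41.0 to 44.0. Plvap went from 0.884 to 4.78 CPM, but it cleared the filter on low counts only through AG120 libraries. The defining endothelial genes were at or near 0: Cldn5 had no count in any library, Cdh5 had 1 count and Kdr 5 counts over all 14. Of 10 T and NK cell genes, a cell type that carries 2B4, the sum was 36.6 to 45.3 CPM with vehicle and 10.2 to 12.2 with AG120 at day 5, 39.9 to 41.8 and 3.58 to 4.40 at day 14, and 31.2 to 39.8 in relapse, nearly all of it Nkg7, while Cd3e had 1 count over all libraries. Of 10 genes of mast cells, which carry Kit, and basophils, the sum was 103 to 132 CPM with vehicle and 52.4 to 54.6 with AG120 at day 5, 130 to 132 and 19.4 to 21.2 at day 14, and 60.4 to 82.7 in relapse, with Mcpt4, Cma1 and Mrgprb2 at 0 throughout. Of 10 neutrophil genes the sum was 586 to 777 CPM with vehicle and 123 to 209 with AG120 at day 5, 981 to 1196 and 1303 to 1701 at day 14, and 260 to 1293 in relapse. At day 14, 0 of these 10 passed higher and 1 lower (16.8% and 17.9% of all genes). Without overlap 6 were higher and 2 lower (34.2% and 36.3% of all genes). The mean of S100a8 went from 572 to 737 CPM that day and that of Cxcr2 from 28.9 to 4.99. Of 8 megakaryocyte genes it was 255 to 316 CPM and 35.9 to 55.9 at day 5, 226 to 256 and 77.3 to 86.7 at day 14, and 78.4 to 279 in relapse. Of 9 monocyte and macrophage genes it was 38.4 to 46.6 CPM and 15.3 to 17.6 at day 5, 41.9 to 54.5 and 25.1 to 29.8 at day 14, and 39.2 to 101 in relapse. Genes of B cells and stroma summed to at most 4.84 and 6.496 CPM in any library. The part of a shift in cell types in the members' changes was not tested.

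Across the 14 libraries, the genes tested whose centred log2 CPM lay closest to a member's were looked up, 3 for each, by the root-mean-square difference (RMS). For Cd34, whose own standard deviation was 2.06, they included Tespa1 (RMS 0.31) and Gng2 (0.34). For Cd244a they were Tespa1 (0.16), Cd34 itself (0.35) and Gng2 (0.39), which makes the pair Cd34 and Cd244a the 1 case in which a member was among another's 3 nearest. Those of Eng were Ldb1 (0.18), Ssbp3 (0.22) and Alkbh8 (0.22), those of Ptprc Znrf1 (0.15), Map4k4 (0.19) and Arhgap30 (0.20), and those of Muc13 Tbc1d4 (0.33), Man2a2 (0.38) and Pafah2 (0.41). Kit lay closest to Rab38 (0.22), Trim12c (0.26) and Dnmt3b (0.26), Cd48 to Tcirg1 (0.17), Nxn (0.22) and Epb41l2 (0.23), and Cd47 to Spcs2 (0.13), Sil1 (0.16) and Manf (0.16), where the standard deviation of Cd47 was itself 0.31. Esam was nearest to Hacd4 (0.37), Fam117a (0.42) and Ncoa3 (0.43). These libraries share groups and depth, so closeness describes a like pattern over the 5 groups and nothing further.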

How the data were processed

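Raw counts of 52636 Ensembl gene identifiers in 14 columns, 1 per library, were deposited by the authors. Per the submitters' processing notes, they used HISAT2 2.1.0, featureCounts of Subread 1.6.3, cutadapt 1.14 and bcl2fastq 2.17.1.14 with the build mm10, and edgeR 3.28.1 and limma 3.42.2 in R 3.6.2. Settings for strand and multi-mapping reads: not given in the sources used here. Per the labels' protocols, libraries were made with the QuantSeq 3′ kit. GENCODE annotation of GRCm38 named 52489 identifiers; 22670 had no count.

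From these counts, genes were filtered with filterByExpr (minimum count 10; 11994 kept), scaled by TMM (factors 0.672 to 1.33) and tested by the quasi-likelihood method of edgeR 4.0.16 (R 4.3.3, robust, 1 coefficient per group, all 14 libraries, 9 residual degrees of freedom). SE is the fold change over the root of F. TMM-scaled totals gave the CPM; a prior count of 2 was added for log2 CPM. Alternatives were DESeq2 1.42.0, its size factors within edgeR, no filter, only the groups compared, ribosomal RNA models left out, a replicate block and leaving out each library. In a test on simulated data of 11994 genes, 54 of 100 genes changed 2-fold and 76 of 100 changed 4-fold were recovered at day 5, and 36 and 70 at day 14. No other gene was changed, and 8 unchanged genes were called at day 5 and 4 at day 14. Far more genes passed in the real data, so these shares do not give the recovery there. No pair of libraries agreed within sampling noise. A zero count allows up to 3 counts; counting intervals are exact (Clopper-Pearson) at 95%.

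The members and lists were chosen with earlier results of these data known. Named genes are the members; in each list, comparison and direction, up to 3 that passed, by size of change, or else the 2 most expressed; and the 3 nearest to each member (mean log2 CPM of at least 3). Cd36, Egfl7, Pecam1, Tfrc, Slamf1 at days 5 and 14, Kitl, Fpgs, Gm16897 and the markers were named outside that rule, after their values were seen. Lists were matched by symbol; Cd99 was not matched. Some genes that this rule names are not reported here.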

Additional observations from a re-analysis of the deposited data

Results flagged for a closer look

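Ly6a in relapse replicate 4 stood apart from the other 3 relapse libraries. Its gap to the nearest library, divided by the range of the group, was 0.847, above Dixon's 95% critical value for 4 samples, and rests on 15 counts against 1, 0 and 2. The 10 members were each looked at in this way, and chance marks about 1 in 20 groups.

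The effect of AG120 differed between day 14 and day 5 for Muc13 by -3.13 on the log2 scale, for Ptprcap by -1.43 and for Ly6e by -0.88, each by a test of the difference itself. In all 3 the treated level was lower at day 14: Muc13 under AG120 went from 50.3 ± 2.65 CPM (SD, n = 3) at day 5 to 7.28 ± 0.676 CPM (SD, n = 2) at day 14.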

How the results depend on the processing

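Of 703 member values under alternatives, 664 kept direction and side of the threshold, 9 lost the call, 7 gained it and 23 turned sign; of those 23, 0 had passed. Leaving out 1 library at a time gave 3716 to 3873 genes called at day 5 (4730 with all), 2752 to 3003 at day 14 (4159 with all) and 5579 to 6514 for relapse against AG120, with 6 members called at days 5 and 14 and 6 to 8 in relapse against AG120. For the difference between the days, 112 genes passed, against 187 by DESeq2, 374 with no filter, 869 with only the groups compared and 13 to 61 without 1 library; 1 member passed, against 2 with no filter (Cd34 added, adjusted p = 0.0181) and 4 with only the groups compared (Cd34, Kit and Cd47 added). For relapse against vehicle 22 genes passed, against 120 by DESeq2, 267 with no filter, 7 with only the groups compared and 8 to 117 without 1 library, the highest without relapse replicate 2; DESeq2 called 1 member. For vehicle day 14 against day 5 0 genes passed, against 33 with no filter and 236 with only the groups compared. Kit at day 14 missed with no filter (adjusted p = 0.0541). Ly6a could be fitted only with no filter. The cause of these shifts was not tested.

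Values that turned sign without 1 library ran, in the difference between the days, from -0.14 to 0.0073 (Ptprc) and -1.98 to 4.65 (Esam); in relapse against vehicle from -0.29 to 0.18 (Kit), -0.31 to 0.034 (Eng), -0.0021 to 0.34 (Cd244a), -0.19 to 0.034 (Muc13) and -0.047 to 0.36 (Cd47); in relapse against AG120 from -0.15 to 0.26 (Cd47); and in vehicle from -0.018 to 0.088 (Cd34), -0.032 to 0.055 (Kit) and -0.25 to 0.25 (Esam).

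Whether replicate numbers pair the samples was not settled. Deviations of same-numbered libraries correlated at -0.22 to 0.17 over 23 pairs, within the -0.24 to 0.29 of 54 pairs with different numbers. Within each day 14 group the deviations of the libraries mirror each other. The correlations are therefore not independent and cannot exclude pairing. With a replicate block, 4677, 4129, 108, 16, 6167 and 0 genes passed in the order day 5, day 14, difference, relapse against vehicle, relapse against AG120 and vehicle. The block turned the sign of 4 values that had not passed: Kit 0.10 and Cd47 -0.046 in relapse against vehicle, Cd47 -0.15 in relapse against AG120, and Esam -0.015 in vehicle. It changed no call of a member. Depth limits Esam, Ly6a and the treated levels of Cd244a and Cd48 most.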
